A study of Mus musculus with 11 samples.

Results

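A group of 75 array probes gave a lower signal in embryoid bodies without connexin43 and connexin45 than in both control groups, that is, control embryoid bodies and the control stem cells from which such bodies form. The members were chosen by measured values: of 45281 probes on the array, 13935 were detected on both control stem cell arrays and on all 3 control embryoid body arrays (detection p-value under 0.05), and 75 of these had a mean log2 intensity in deleted embryoid bodies at least 1, or 2-fold, below each control mean. The differences of deleted embryoid bodies from the control groups are therefore descriptions and carry no test. The files and the reference tables used here pair no probe identifier with a gene, so members are named by identifier, their gene functions are not given, no sequence is printed, and cell type markers and the deleted genes could not be checked.

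All cells were mouse cells of a male C57BL/6 line. The control line carried both connexin genes in floxed form (Cx43/45 flox), and the deleted line (Cx43/45 del) lacked exon 3 of both genes and carried lacZ under the Cx43 promoter and eGFP under the Cx45 promoter, so the lines differ by the reporters as well. Stem cells (2 arrays per line) grew with leukemia inhibitory factor on feeder fibroblasts, whereas embryoid bodies (3 control and 4 deleted arrays, each from a pool of about 300 bodies) were made in hanging drops without these and harvested on day 6. The submitters call the arrays biological replicates, but 1 line stands for each genotype and the labels name no separate cultures. Spread and p-values therefore describe these arrays, and the spread may be technical. In such bulk RNA, fewer cells of a type and less RNA per cell cannot be told apart.

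Connexins assemble into gap junctions, channels through which neighbouring cells exchange ions and small molecules. Embryonic stem cells express connexins and are coupled. In embryoid bodies an outer layer of primitive endoderm forms and inner cells leave the pluripotent state, so that transcripts of the stem cell state fall while those of the new lineages rise.

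Between 39.7% and 43.0% of probes were detected per array, and mean deposited intensity ran from 381 to 503 units. Background was taken as the median intensity of probes with a detection p-value of at least 0.5. It was 102.5 to 107.2 units on deleted embryoid body arrays and 107.8 to 109.9 on control embryoid body arrays. On stem cell arrays it was higher in most cases, at 109.5 and 117.7 units (control) and 121.2 and 116.7 units (deleted). After quantile normalization it was 109.9 to 110.3 on every array. Intensities below are quantile normalized. They still contain this background, which compresses the fold change of dim probes.

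Probes below both control groups are part of those below either group, so their smaller number was fixed in advance. Of the 13935 detected probes, 739 (5.30%) were at least 1 lower on the log2 scale in deleted bodies than in control stem cells, and 475 (3.41%) were that much lower than in control bodies. The 75 members (0.538%) are the overlap. Most lay close to the threshold: the smaller of the 2 drops had a median of 1.21 on the log2 scale, was under 1.5 in 58 members, at least 2 in 4 and at least 3 in 2. Just inside the rule were ILMN_1259400, at -1.00001 from control bodies, and ILMN_2634222, at -1.01 from control stem cells. Just outside were ILMN_2710784 and ILMN_1241618, at -0.995 and -0.992 from control bodies. The count itself depended on background: with limma's neqc background correction 327 probes met the rule, all 75 members among them. The other 252 were dim, with a median of 289 units in control stem cells and 164 in deleted bodies, and a median smaller drop of 0.63 without the correction.

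**Figure D1:**
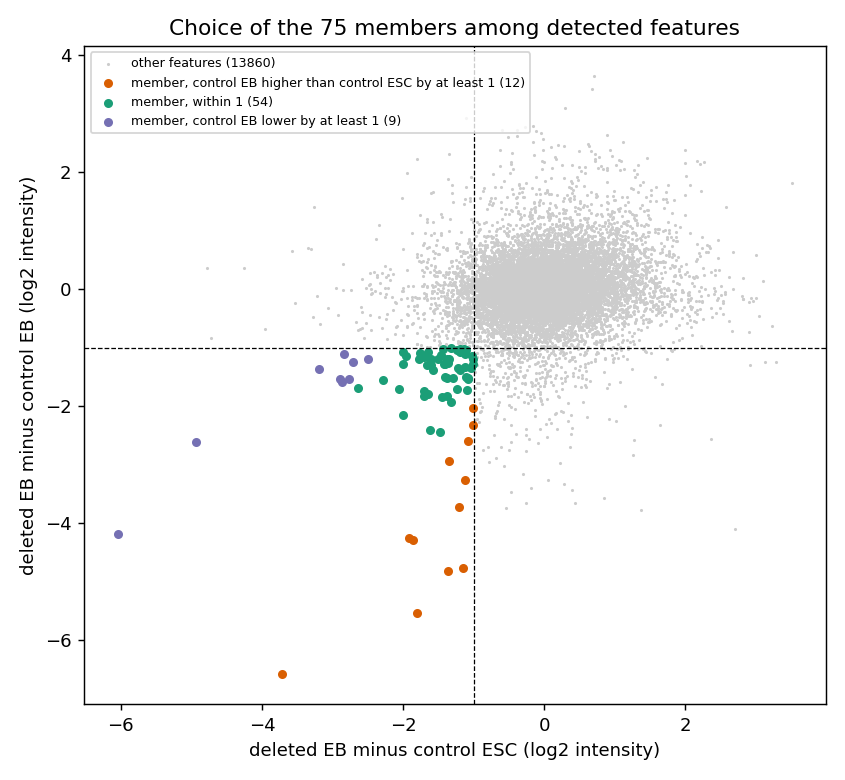
Each point is 1 of the 13935 detected probes, placed by the log2 difference of deleted embryoid bodies (EB) from control stem cells (ESC, horizontal) and from control embryoid bodies (vertical). Dashed lines mark the rule at -1, and the 75 coloured members lie in the lower left corner, most of them near the lines.

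The rule used control intensities: a probe near background in either control group cannot lie 2-fold lower in deleted bodies, so dim probes were left out by construction and bright members in the control groups are no finding. The median intensity of members was 892 units in control stem cells, 836 in control bodies and 1073 in deleted stem cells, beside 379 to 380 over all 13935 detected probes in each of these groups. In deleted bodies the median was 226 units, and 33 members had a mean under 2 times the mean background of 110.0 units on those arrays. Signal was nevertheless detected on all 4 deleted body arrays for 64 members, on 1 to 3 arrays for 10 and on none for 1, ILMN_1248397. For 74 members every deleted body array lay below all 7 other arrays. The exception was ILMN_2621643, at 1237, 639, 397 and 312 units in deleted bodies, whose replicate 1 overlapped control stem cells at 932 and 1487 units. The rule sets the deleted body mean below both control means and so favours this separation. No share over all probes is given for it, and nothing is read from the count.

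The control line's own course separated the members into 3 classes. In 12 members control bodies were at least 2-fold above control stem cells, in 9 they were at least 2-fold below them, and in 54 the 2 control groups were within 2-fold, 24 of these higher and 30 lower in bodies. Both groups entered the rule, so the classes are descriptive. In limma's fit of all arrays the change from control stem cells to control bodies passed an adjusted p of 0.05 upward for 18 members (18.3% of all 23268 probes tested) and downward for 14 (19.4% of all), and nothing is read from these counts.

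The gap between control and deleted bodies was wide by construction in the 12 members of the higher class. Their control bodies are at least 2-fold above control stem cells, and the rule puts deleted bodies at least 2-fold below them. Their median was 676 units in control stem cells, 4233 in control bodies and 205 in deleted bodies, so that the log2 difference between deleted and control bodies ranged from -6.59 to -2.03. ILMN_1256343 led this class. It read 2019.7 and 2335 units in control stem cells, 3139 and 2413 in deleted stem cells, 18709, 14248 and 14941 in control bodies, and 144, 255, 141 and 143 in deleted bodies. Signal was thus similar in both kinds of stem cell, increased 7.30-fold with stage in the control line, and was low in every deleted body array. Deleted body replicate 2 was the highest of these, at 255 units, and the others were close to background. The log2 difference of deleted bodies was -6.59 from control bodies and -3.72 from control stem cells.

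ILMN_1237197 and ILMN_2669912 had almost the same profile. The first read 658 and 1024 units in control stem cells, 754 and 1220.2 in deleted stem cells, 3752, 4665 and 4052 in control bodies, and 272, 234, 213 and 162 in deleted bodies. After centring, the log2 profiles of this pair differed by a root mean square of 0.087 over 11 arrays (Pearson r = 0.999, a description, since all pairs share the arrays and the rule). Whether both probes report the same gene is not known here, and so members are not counted as independent. ILMN_2906728 rose most in control bodies, 13.3-fold over control stem cells. It read 367 and 564 units in control stem cells, 1260.4 and 726 in deleted stem cells, 4695, 5461 and 8699 in control bodies, and 125, 162, 124 and 116 in deleted bodies. Of the 4 deleted body arrays 1 detected it. Both kinds of stem cell therefore gave clear signal for a transcript that was almost lost in deleted bodies.

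Among the rest of this class ILMN_2597769 was the brightest probe in control bodies, at 28340.0, 30234 and 26342 units, against 725, 1904, 988 and 751 in deleted bodies and 2427 and 2775 in control stem cells. It is an example outside the naming rule, chosen after its values were seen. Here deleted bodies were well above background and still 2.58-fold below control stem cells.

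**Figure D2:**
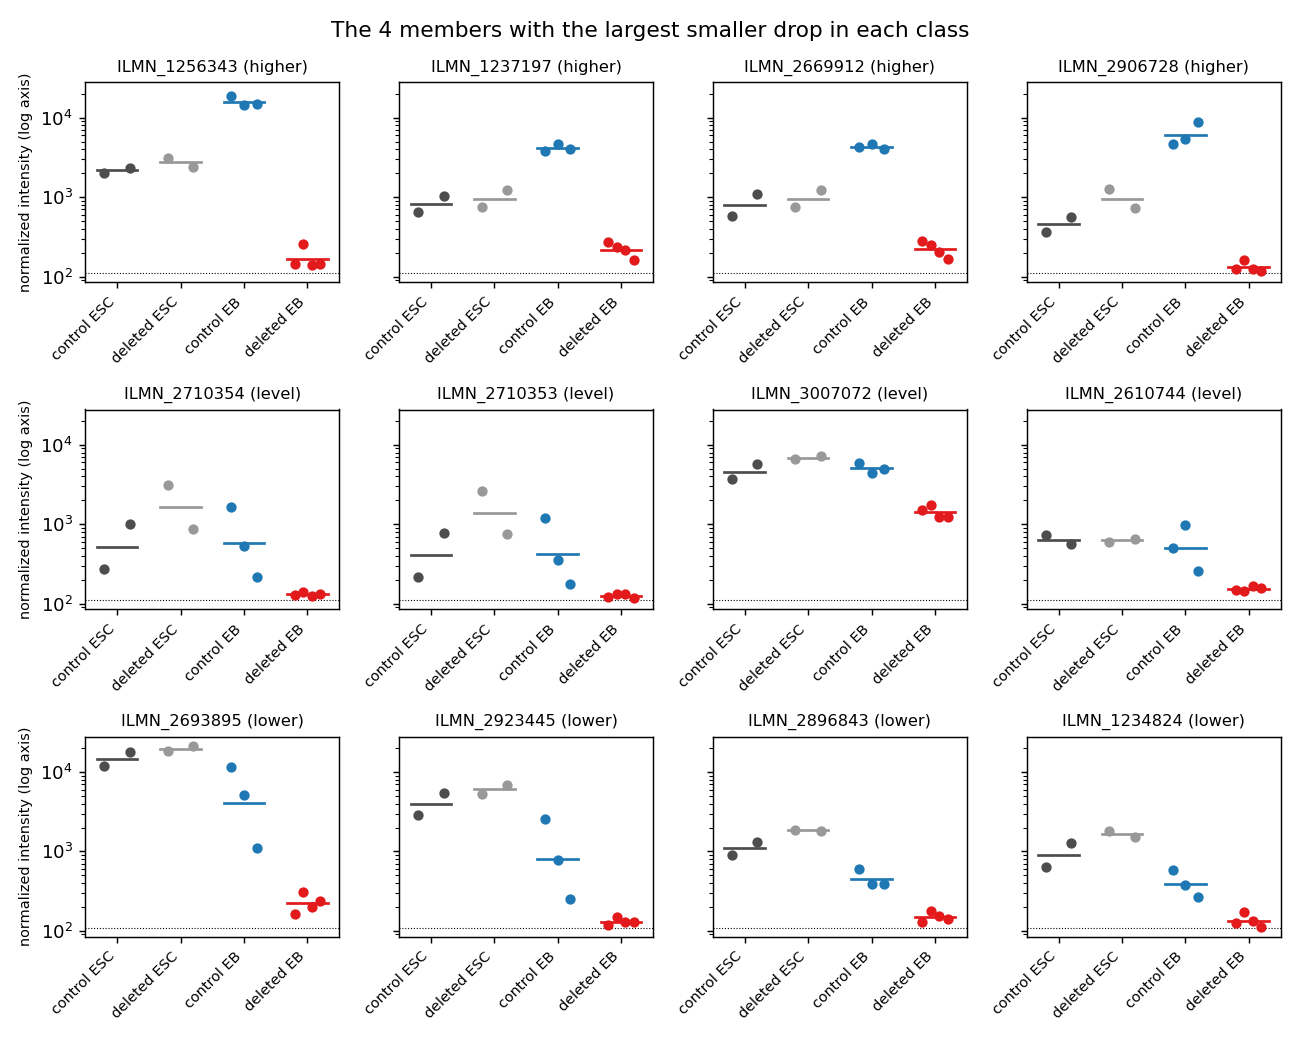
Normalized intensity (log axis) on every array for the 4 members with the largest smaller drop in each class: control bodies higher than, level with, or lower than control stem cells. Points are arrays, bars are geometric means of a group and the dotted line is the mean background. Deleted bodies lie lowest in all 12 panels, near background in most, whereas ILMN_3007072 reads 1237 units or more.

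The 54 level members include most of those with a moderate difference. Their median was 742 units in control stem cells, 773 in control bodies and 289 in deleted bodies. ILMN_3007072 shows the class at high signal: 3668 and 5811 units in control stem cells, 6576 and 7288 in deleted stem cells, 5929.6, 4393 and 4910 in control bodies, and 1506, 1742, 1237 and 1237 in deleted bodies. Deleted bodies lay apart from all other arrays at a signal well above background. The log2 difference of ILMN_3007072 from control bodies was -1.83, and -1.91 after neqc. ILMN_2518346 had nearly the same profile (root mean square difference 0.093, r = 0.995), at 413 to 532 units in deleted bodies and 1193 to 2478 elsewhere.

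ILMN_2710354 and ILMN_2710353, whose identifiers are consecutive, were the most uneven members of the class. ILMN_2710354 read 274 and 1005 units in control stem cells, 3149 and 872 in deleted stem cells, 1671, 533 and 219.8 in control bodies, and 128, 139.5, 125 and 131 in deleted bodies. ILMN_2710353 followed it at lower signal, with 2589.8 and 747 units in deleted stem cells and 118 to 133 in deleted bodies. Signal varied several-fold within each of the other groups and not in deleted bodies, which were close to background. ILMN_2610744 gave 734 and 561 units in control stem cells, 601 and 658 in deleted stem cells, 508, 968 and 256 in control bodies, and 145 to 165 in deleted bodies, and is uneven in control bodies alone.

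At the upper end of the deleted body signal were ILMN_2619107, ILMN_2994779 and ILMN_3136561, with means of 2306 ± 989, 1612 ± 363 and 1583 ± 373 units (SD, n = 4). Altogether 8 members had a deleted body mean over 1000 units. At the lower end ILMN_1248397, the only member undetected on all 4 deleted body arrays, read 119.6 to 122.9 units there, 249.8 and 279 in control stem cells, and 256, 288.5 and 384 in control bodies. The size of its fold change is bounded by background.

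By construction, the 9 members of the lower class were lower in control bodies than in control stem cells, and lower still in deleted bodies. Their median was 1669 units in control stem cells, 2835 in deleted stem cells, 477 in control bodies and 180.5 in deleted bodies. ILMN_2693895 had the largest drop of all members by the smaller of its 2 differences. It read 11950.5 and 17914 units in control stem cells, 18168 and 21419 in deleted stem cells, 11654, 5089.7 and 1102 in control bodies, and 165, 312, 200.5 and 237 in deleted bodies. Deleted bodies thus averaged 65.8-fold below control stem cells and 18.1-fold below control bodies, but the 3 control body arrays themselves spanned 10.6-fold.

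ILMN_2923445 was alike, at 2904 and 5418 units in control stem cells, 5360.1 and 6839.8 in deleted stem cells, 2562, 773 and 254 in control bodies, and 118, 149, 128 and 129 in deleted bodies. Its control body replicate 3 was the control array nearest to the deleted bodies. ILMN_2896843 and ILMN_1234824 were steadier in control bodies, at 595, 393 and 386 units and at 591, 377 and 269.5 units, against 129.6 to 177 and 110.6 to 173 units in deleted bodies. In all 9 members of the class every deleted body array lay below every other array, a separation that the rule favours. No share over all probes is given for this either, and nothing is read from the count.

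**Figure D3:**
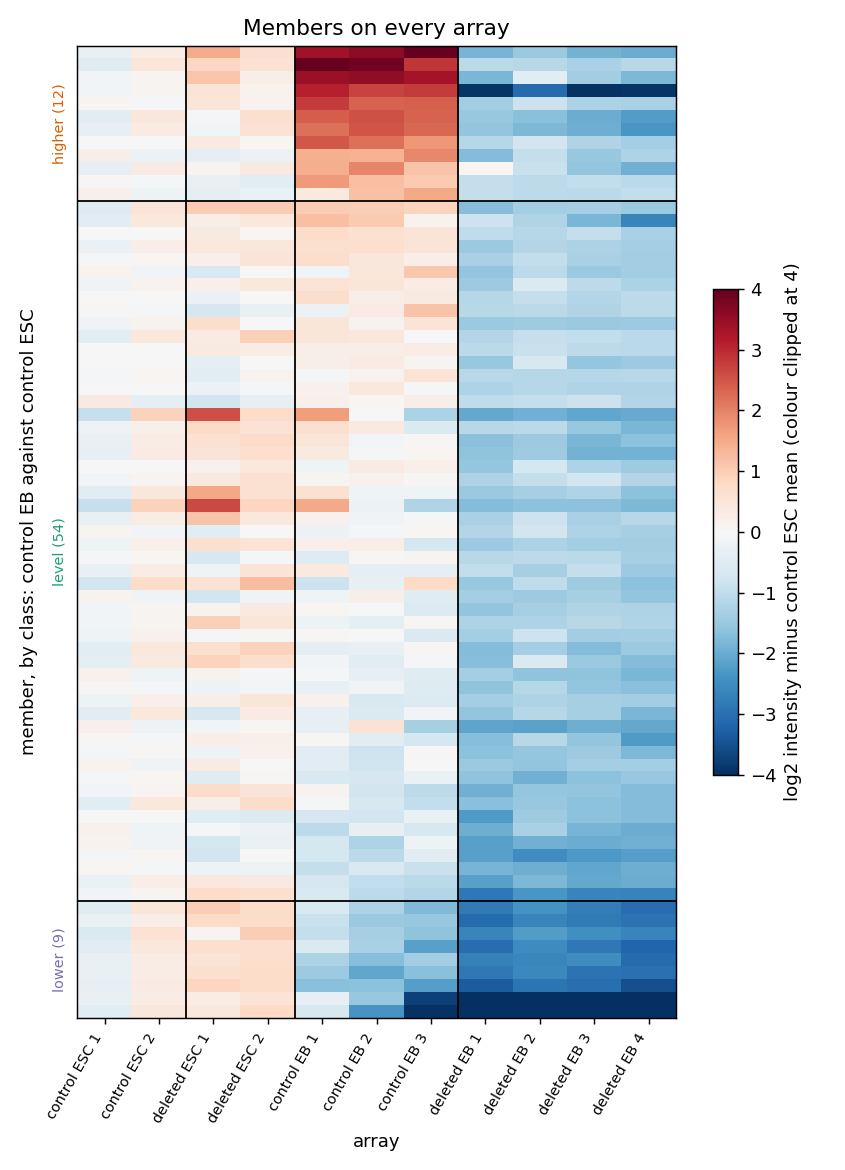
Log2 intensity of the 75 members (rows, by class) on the 11 arrays, relative to the mean of control stem cells. Colours are clipped at 4. In the deleted body columns every cell but 1, of ILMN_2621643, is below 0, and deleted stem cells average above 0 in 51 rows.

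Deleted stem cells took no part in the choice of members and show where the members stood in the deleted line before differentiation. All 75 members were detected on both deleted stem cell arrays, which is expected of probes chosen as detected in both control groups. Their log2 difference from control stem cells had a median of 0.33, from -0.53 to 1.75, and was above 0 in 51 members and below 0 in 24, beside a median of -0.01 and 46.6% above 0 over all 23268 probes tested. In the lower class all 9 members had a higher mean in deleted stem cells, by 0.43 to 0.86. Each of them also read higher on control stem cell replicate 2 than on replicate 1. ILMN_1223552, for example, read 979 and 1800 units in deleted and 613 and 1346 in control stem cells, with overlap. No share of other probes that fell in the control line is given, and nothing is read from this count. With limma, 0 members passed an adjusted p of 0.05 (0% of all probes tested passed), and the smallest adjusted p among members was 0.51. At an unadjusted p under 0.05, 17 of 75 members (22.7%) were higher, where 4.84% of all probes were, and 1 member (1.33%) was lower, where 4.15% were. These shares are not like for like, since all probes tested had a median of 188 units in control stem cells, against 892 for members. Control stem cell arrays, which entered the rule, are one side of the stem cell comparison.

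The size of that shift and its unadjusted calls rested on control stem cell replicate 1. The members were higher on control replicate 2 than on control replicate 1 in 53 of 75 cases (51.1% of all probes tested), with a median difference of 0.24. Without control replicate 1 only 3 members were at an unadjusted p under 0.05, against 28 without control replicate 2 and 28 without control embryoid body replicate 3, which changes the normalization and the pooled spread. Set against control replicate 2 alone, the median difference was 0.11 for deleted replicate 1 and 0.16 for deleted replicate 2, with 43 and 55 of 75 members higher, beside 46.7% and 49.0% of all probes tested. Adjusted calls appeared for 1 member without control replicate 2 (ILMN_1228942, 1.53 ± 0.16 SE, limma adjusted p = 0.032) and for 1 without deleted replicate 2 (ILMN_1259470, 0.97 ± 0.17 SE, limma adjusted p = 0.027). Among all 23268 probes, 27 and 498 passed under those settings. With a stem cell array left out, its group is a single array that is assumed to vary like the other groups.

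The members with the largest stem cell differences were those 2 consecutive identifiers, ILMN_2710353 at 1.75 ± 0.85 (SE) and ILMN_2710354 at 1.66 ± 0.89, but the differences were 0.85 and 0.72 without control replicate 1 and 0.86 and 0.74 without deleted replicate 1. ILMN_2451022 followed at 1.08 ± 0.38, with 6613 and 3421 units in deleted and 1638 and 3109 in control stem cells, and was 0.62 without control replicate 1 and 0.60 without deleted replicate 1. The lowest were ILMN_2634222 at -0.53 ± 0.21, ILMN_2994779 at -0.51 ± 0.24 and ILMN_2645275 at -0.49 ± 0.28. ILMN_2994779 read 3840.3 and 3702 units in deleted and 5479 and 5273 in control stem cells, without overlap. Without control replicate 1 the difference of ILMN_2634222 was -0.19, and without deleted replicate 1 it was -0.33, with -0.27 for ILMN_2645275. None of these 6 differences passed limma's adjusted threshold.

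Within the deleted line the members were lower in bodies than in stem cells. The log2 difference had a median of -1.76, from -6.47 to -0.48, and every deleted body array was below every deleted stem cell array for all 75 members, as it was for 20.9% of all probes tested. The mean was at least 1 lower for 66 members (2.88% of all probes), and 71 passed limma's adjusted threshold downward (11.8% of all). The 4 that did not were ILMN_2756023, ILMN_2621643, ILMN_1253362 and ILMN_2634222. Deleted body arrays entered the rule, so low values there were required and these shares are not evidence about the members.

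**Figure D4:**
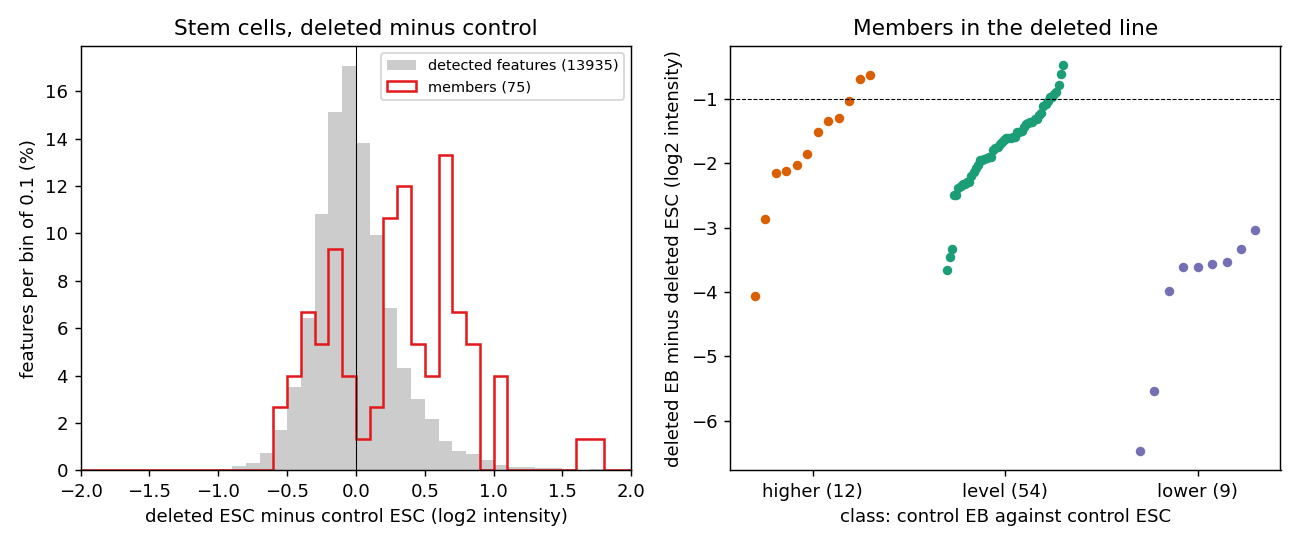
Left, distribution of the log2 difference between deleted and control stem cells for the 75 members and all 13935 detected probes, in bins of 0.1; the members' median of 0.33 lies above that of the detected probes. Right, log2 difference between deleted bodies and deleted stem cells for each member by class, with a dashed line at -1; all 9 members of the lower class lie below -3.

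Each deleted body array was also left out of the choice and read against deleted stem cells, which no choice used. The left-out array comes from the same line as the deleted body arrays used, so high shares were expected and are descriptive. All probes tested, given beside them, include dim ones that cannot fall 2-fold. Members were chosen on the other arrays, after normalization of all 11. On the left-out replicate 1, 61 of 71 probes so chosen (85.9%) were at least 1 below the deleted stem cell mean, beside 3.55% of all probes tested. The counts were 66 of 95 (69.5%, beside 2.48%) for replicate 2, 67 of 76 (88.2%, beside 3.03%) for replicate 3 and 62 of 69 (89.9%, beside 3.38%) for replicate 4. All probes so chosen were below the deleted stem cell mean on each left-out array. The share was lowest on replicate 2.

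The same was done for the control arrays, each read against the mean of deleted bodies, which did enter the choice. On left-out control body replicates 1, 2 and 3, 59 of 82, 59 of 80 and 51 of 80 chosen probes were at least 1 higher than deleted bodies (72.0%, 73.8% and 63.8%, beside 3.09%, 2.75% and 3.17% of all probes tested). On left-out control stem cell replicates 1 and 2 they were 60 of 82 and 60 of 69 (73.2% and 87.0%, beside 4.30% and 3.68%).

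Among the control bodies the members were uneven. Their log2 SD over the 3 arrays had a median of 0.31, beside 0.18 over detected probes, and was at least 1 in 4 members. The 2 medians are not like for like, since background compresses the log2 spread of dim probes. Members had a median of 836 units in control bodies, beside 380 over detected probes. Replicate 3 was the lowest control body array for 38 members (50.7%, beside 35.2% of detected probes) and replicate 1 the highest for 37 (49.3%, beside 42.2%). The 3 widest ranges were those of ILMN_2693895, ILMN_2923445 and ILMN_2710354, at 3.40, 3.34 and 2.93 on the log2 scale, all with replicate 1 high and replicate 3 low. In deleted bodies the median SD was 0.19, beside 0.15. Replicate 2 was the highest deleted body array for 47 members (62.7%, beside 34.7% of detected probes), with a member median of 277 units against 207 to 217 on the other 3, and replicate 4 was the lowest for 33. Without deleted body replicate 2 the rule found 95 probes, 74 of the 75 members among them.

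**Figure D5:**
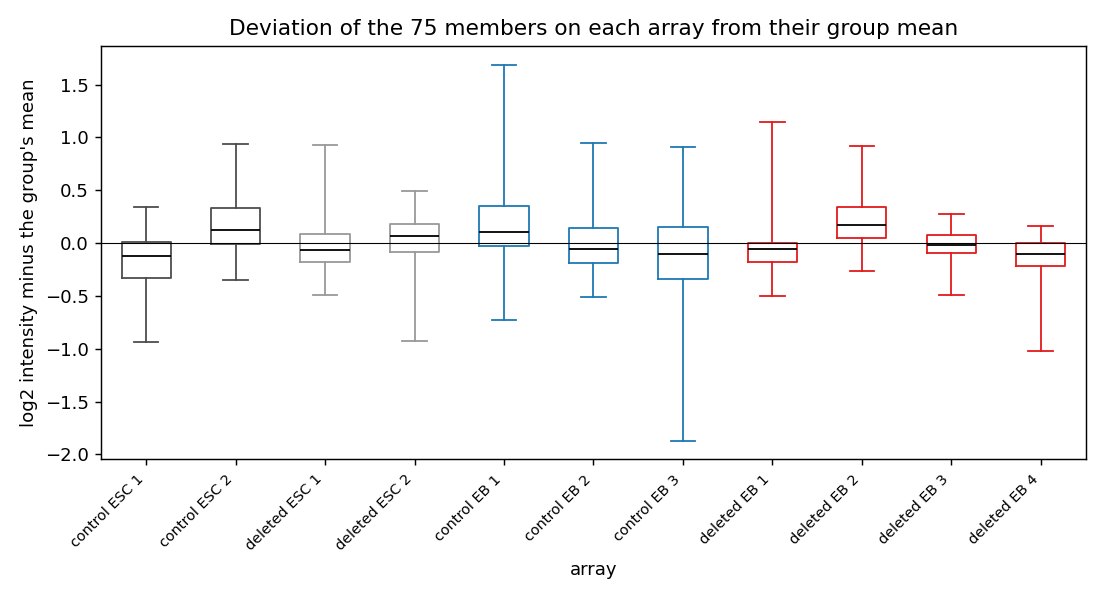
Deviation of each member's log2 intensity from its group's mean, by array. Boxes span the quartiles with the median, and whiskers reach the lowest and highest member. Control body replicate 3 reaches lowest, and the box of deleted body replicate 2 lies above 0.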

How the data were processed

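Labelled RNA of 11 samples was hybridized to Illumina MouseWG-6 bead arrays, 1 per sample. The authors deposited, per the file headers, 1 intensity and 1 detection p-value for each of 45281 probes on each array; all 22 columns matched a sample title. The deposited intensity values are not normalized between arrays. Per the series' design text GenomeStudio 2011.1 with Gene Expression module 1.9.0 made them; for background subtraction, nothing is stated. The deposited detection p-value ranks a probe against negative control beads. The number of arrays limits the precision.

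Here, quantile normalization of the 11 arrays was followed by log2. Members were chosen by the rule above. A model of 4 group means was fitted with limma 3.58.1 (R 4.3.3) to all arrays and the 23268 probes that 2 or more arrays detected at p under 0.05, with Benjamini-Hochberg adjustment over all of them; all 75 members were among these. The fit was run on simulated data as a check of the code. Its power to find small stem cell differences is not given here, so a lack of calls there does not show equal signal. Members, classes and tests were chosen with earlier results of these data known. Named are, per class, the 4 members with the largest smaller drop; the 3 highest and 3 lowest stem cell differences; the 3 widest control body ranges; the members undetected in deleted bodies (up to 4, of which 1 exists); the 3 brightest in deleted bodies; and 2 probes on each side of the threshold. Other named probes were picked after their values were seen. Alternatives were median scaling, neqc (offset 16), no normalization, other filters, thresholds and fits, a replicate block, and each array left out in turn. Marker lists were not used because probes were not matched to genes.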

Additional observations from a re-analysis of the deposited data

Results flagged for a closer look

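In the 4 deleted embryoid body arrays, 21 measures were examined: the signal of the 20 named members and the median of all 75. For 3 of them 1 array stood apart, where chance gives about 1 in 20, and in each case it was replicate 2, the highest. For ILMN_1256343 the gap to the nearest array was 0.974 of the whole range, from 255 units against 141 to 144. For ILMN_2619107 it was 0.838, from 3773 units against 1690.0 to 2028. For the median of the members it was 0.859, from 277 units against 207 to 217. Replicate 2 also has the lowest deposited background of the 11 arrays, 102.5 units; its part in these values was not tested. The 3 measures are not independent, since the median includes both probes.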

How the results depend on the processing

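The number of members was 75 as reported and 60 to 83 with median scaling, no normalization, a detection p-value under 0.01 in the rule or group medians. It was 327 with neqc, 153 with both differences at most -0.8, 17 with both at most -1.5, and 69 to 95 when arrays were left out in turn. The median over members of the smaller of the 2 differences was -1.21, -1.78 with neqc, and -1.30 to -1.16 with arrays left out. In stem cells 0 members and 0 probes passed under all other settings except arrays left out, which gave 0 to 1 members and 0 to 498 probes (27 without control stem cell replicate 2, 498 without deleted stem cell replicate 2). Members at an unadjusted p under 0.05, 18 as reported, numbered 3 (without control stem cell replicate 1) to 28 (without its replicate 2, or without control embryoid body replicate 3). Members lower in the deleted line's bodies, 71, numbered 60 to 73 with arrays left out. Of 644 comparisons of named values with a setting, 617 moved by less than the spread between replicates, 27 by more (26 of them with neqc) and 0 changed sign. Spread here is the root of the summed squared SDs of the 2 groups compared. Leaving out 1 array moves a group mean by less than this spread, apart from renormalization, so those settings could hardly count as moved. Most named values are differences that the rule set at -1 or below, so a change of sign was hardly possible for them. Neqc moved 26 of the 46 named values, so their sizes depend on background correction. With the replicate number as a block, 0 members passed in stem cells and 67 in the deleted line. Same-numbered arrays correlated at -0.02 in stem cells, where 2 arrays per group leave a single value up to its sign. In embryoid bodies they correlated at 0.08, -0.01 and 0.19, and differently numbered arrays at -0.29 to 0.34. The numbers were therefore not taken as pairs. Dim members limit the sizes: 33 lie under 2 times background in deleted bodies.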
